A study of Mus musculus with 2 samples.

Results

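Sebum is the lipid mixture that sebaceous glands release onto skin and hair, and 39 genes of the enzymes, lipid-binding proteins and regulators that make it were followed here, out of 55353 gene symbols measured. They were chosen by name, with earlier results of these data known. The 39 fall into 12 genes of fatty acid synthesis, desaturation and elongation, 11 of wax, glyceride and lipid storage, 12 of sterol synthesis, and 4 regulators and detoxification genes. Dorsal skin of 7-week-old C57BL/6 mice gave 2 single-cell 3' RNA libraries. The first was from imiquimod-treated skin (imiquimod activates TLR7 and is used to model psoriasis in mice), and the second from skin given Shi-Bi-Man, described by the study as a natural product, together with imiquimod; "with Shi-Bi-Man" below stands for this second library. Both libraries therefore carried imiquimod, neither was untreated skin, and the labels do not say how many mice went into a library. With 1 library per treatment no difference has a replicate check. Each ratio between the libraries is a description of these 2 libraries, and each 95% interval covers counting error only.

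A sebocyte builds sebum in stages. Citrate is turned into acetyl-CoA and then into saturated fatty acids, which are desaturated and elongated; some are reduced to fatty alcohols, and alcohols and acids are joined as wax esters, or with glycerol as triglycerides. Acetyl-CoA also feeds the mevalonate and sterol pathway, whose genes in most cells are switched on together by the transcription factor SREBP-2 when sterol is low, while SREBP-1 and PPAR-gamma act on the fatty acid and glyceride genes. The mature cell fills with lipid and bursts, so that its contents become the secretion.

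The imiquimod library held 11316 cell barcodes with 28920316 counts and the Shi-Bi-Man library 8054 barcodes with 20837259 counts, and 11019 and 7863 cells were used. Of all barcodes, 49 occurred in both libraries, and 0 of these were sebocyte-like in both. Sebocyte-like cells formed 1 cluster, found without any of the 39 genes, in which 12 of 18 sebocyte markers outside the 39 stood out, among them Mc5r, Cidec, Apoc1 and Hsd3b6. It held 641 of 11019 cells (5.82%, exact binomial interval 5.39 to 6.27%) with imiquimod and 228 of 7863 (2.90%, 2.54 to 3.29%) with Shi-Bi-Man. The median count per sebocyte-like cell was 1983 and 3554.5, and their summed counts were 3449512 and 1308182. Markers of other cells in this cluster differed between the libraries: summed fibroblast markers stood at 569 and 1261 counts per 1000000 (CPM), summed haemoglobin and other erythrocyte markers at 826 and 9.17 CPM, and summed B and plasma cell markers, 3 of 7 of them at 0, at 32.5 and 293 CPM. The 9 adipocyte markers, 3 of them at 0, summed to 11 and 7.64 CPM. The part these cells' RNA may have in the values below was not tested.

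In sebocyte-like cells the 39 genes gave 8.02% of all counts in the imiquimod library and 8.18% in the Shi-Bi-Man library. They gave 0.317% and 0.267% in keratinocyte-like cells, and 0.364% and 0.237% in T and NK cell-like cells, called T/NK-like below, which do not make sebum. Their level serves here as a point of comparison for RNA shared between droplets, and is an upper limit of it in their own droplets for genes that they may express themselves. It does not measure shared RNA in other classes. T/NK-like cells were shallower, at a median of 1008 and 779.5 counts. Summed erythrocyte markers stood at 5642 and 2529 CPM in T/NK-like and 826 and 9.17 CPM in sebocyte-like cells. A value below the T/NK-like level is therefore not shown to be background. Of all sebocyte counts, the fatty acid genes held 4.21% and 4.33%, the wax, glyceride and storage genes 2.08% and 1.97%, the sterol genes 0.771% and 0.727%, and the 4 regulators and detoxification genes 0.962% and 1.15%. The share of sebocyte RNA held by each branch was thus close between the libraries. For 33 of 39 genes the level was higher in sebocyte-like cells than in each of 8 other cell classes, in both libraries, against 9.93% of 17703 genes measured over these classes. The exceptions were Elovl1, Elovl7, Far1, Dgat1, Sc5d and Fdps. Counts of a 3' library are not divided by transcript length, so levels are compared between libraries and cells and never between genes.

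**Figure D1:**
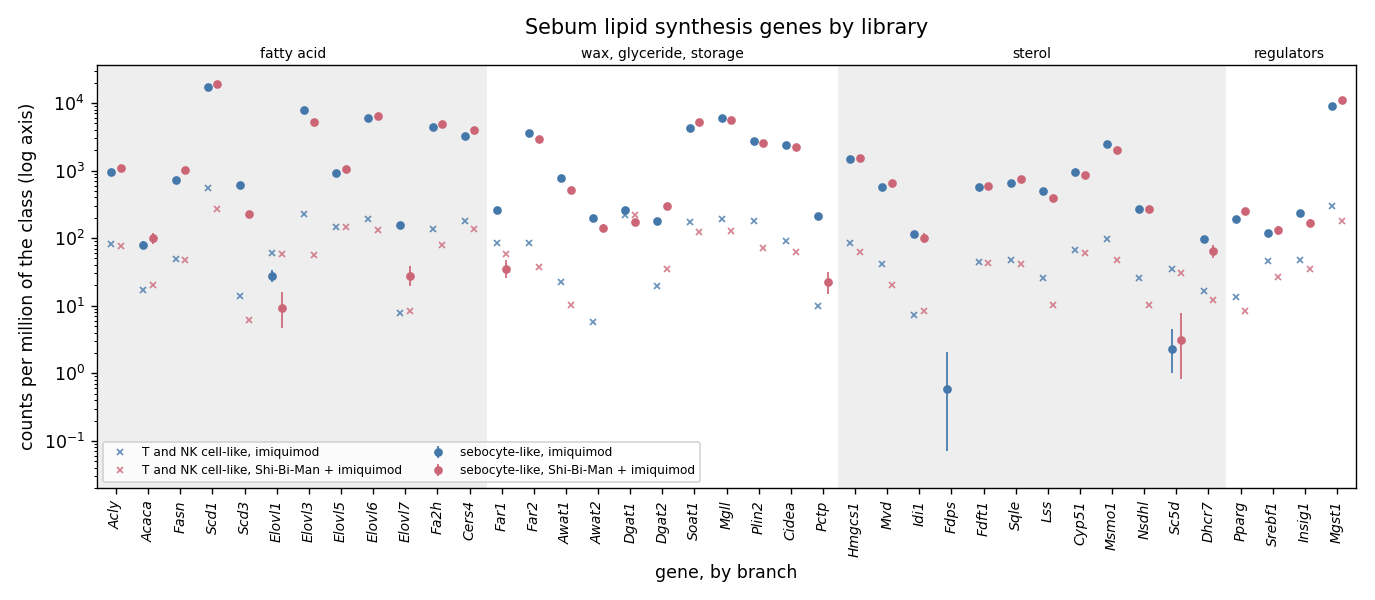
Level of each of the 39 genes in CPM (log axis) in sebocyte-like cells (circles, with 95% Poisson intervals) and T/NK-like cells (crosses), by library; values of 0 are not drawn. Most sebocyte values lie well above the crosses, while Elovl1 and Sc5d lie below them in both libraries and Far1 and Dgat1 lie below them with Shi-Bi-Man.

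Between the libraries, 37 of the 39 genes had the 20 counts in sebocyte-like cells needed for a ratio. Fdps, which makes farnesyl diphosphate, had 2 and 0 counts, and Sc5d, a late sterol desaturase, had 8 and 4. Here and below the log2 ratio is Shi-Bi-Man plus imiquimod over imiquimod alone, so that a negative value is lower with Shi-Bi-Man. Past 1.5-fold, 1 gene was higher with Shi-Bi-Man, Dgat2, and 7 were lower: Scd3, Elovl1, Elovl3, Elovl7, Far1, Dgat1 and Pctp. Of the 7, Elovl1 lay below its T/NK-like level in both libraries, and Far1 and Dgat1 did so with Shi-Bi-Man. Over all 9873 genes with as many counts in these cells, 13.9% were past 1.5-fold higher and 9.65% lower. The median log2 ratio was -0.06 over the 37 genes and 0.05 over all 9873. By branch it was 0.15 for fatty acid genes, -0.32 for wax, glyceride and storage genes, -0.06 for sterol genes and 0.20 for the regulators.

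**Figure D2:**
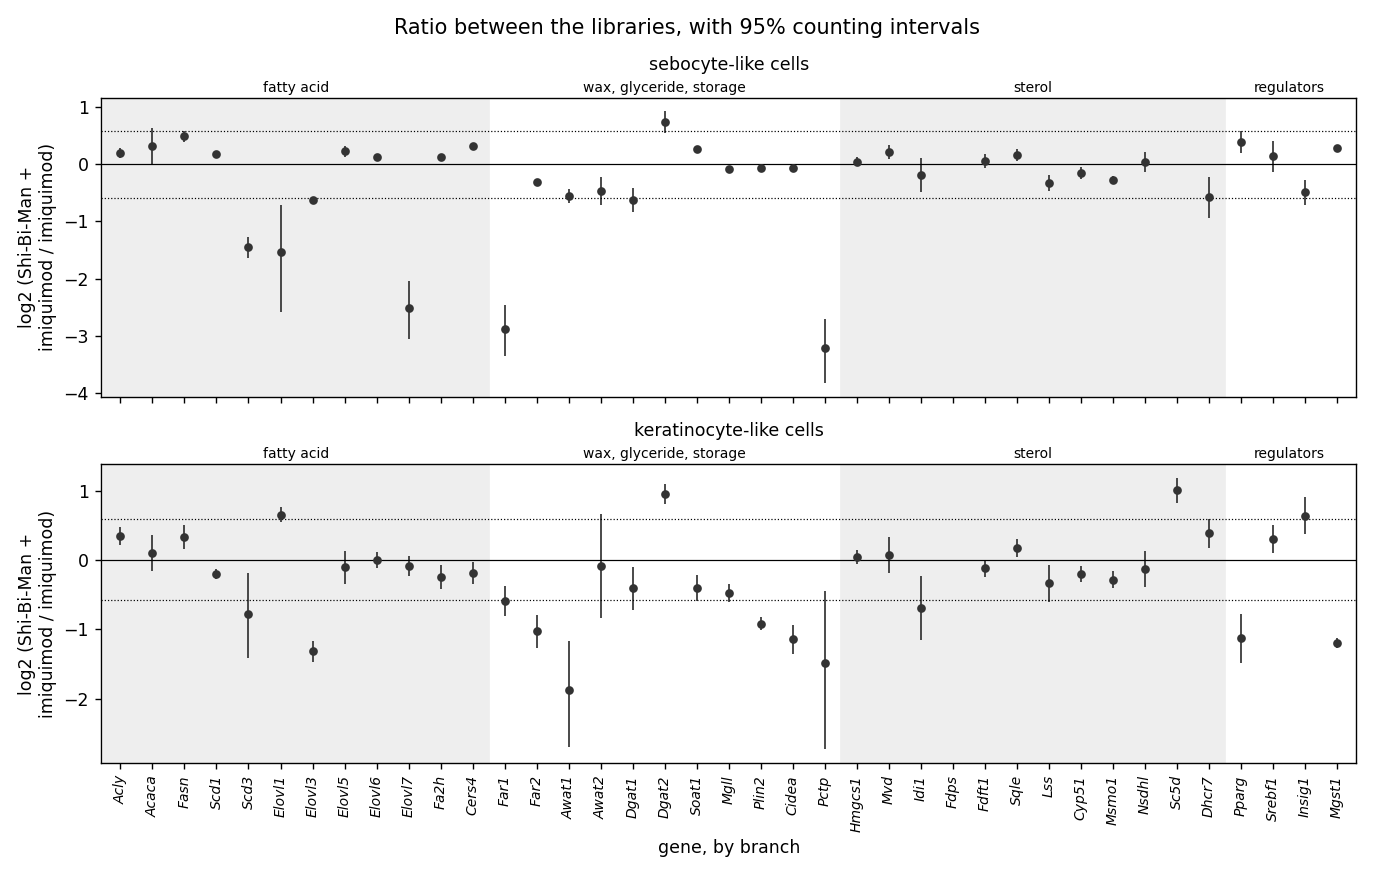
Log2 ratio of each gene between the libraries in sebocyte-like cells (upper panel) and keratinocyte-like cells (lower panel), with 95% counting intervals; dotted lines mark 1.5-fold, and genes with under 20 counts are not drawn. In sebocyte-like cells Pctp, Far1 and Elovl7 lie furthest below 0, and the 10 sterol genes measured all lie within the dotted lines.

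The first steps of fatty acid synthesis were close between the libraries or somewhat higher with Shi-Bi-Man. Acly, which splits citrate into acetyl-CoA, stood at 954 CPM in the imiquimod and 1095 CPM in the Shi-Bi-Man library in sebocyte-like cells (95% interval of the log2 ratio 0.11 to 0.29). Acaca, the acetyl-CoA carboxylase that makes malonyl-CoA, was at 79.7 and 99.4 CPM (log2 ratio 0.32, interval 0.01 to 0.62). Fasn, the fatty acid synthase, was at 730.0 and 1023 CPM (log2 ratio 0.49, interval 0.39 to 0.58), higher with Shi-Bi-Man beyond counting error and inside 1.5-fold. The matching share of sebocyte-like cells with a Fasn count, after each cell was thinned to 500 counts, was 28.7% and 40.4%, against 2.22% and 2.75% of T/NK-like cells.

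The stearoyl-CoA desaturases, which put the first double bond into a saturated chain, went separate ways. Scd1, the skin's major form, was at 16992 CPM in the imiquimod and 19252 CPM in the Shi-Bi-Man library in sebocyte-like cells (log2 ratio 0.18, interval 0.16 to 0.20), and 96.6% and 97.8% of those cells held a Scd1 count after thinning to 500, against 18.2% and 11.4% of T/NK-like cells. Scd3, a form found largely in sebaceous gland, was at 618 and 225 CPM (log2 ratio -1.46, interval -1.64 to -1.28), with a count in 17.5% and 7.02% of thinned cells. Scd2, which is not among the 39, was at 72.8 and 4.59 CPM, from 251 and 6 counts (log2 ratio -3.88, interval -5.45 to -2.85). Scd1, Scd2 and Scd3 are neighbouring, closely related genes (Scd3 lies at chr19:44203269-44244016 and Scd1 at chr19:44394455-44407879 in GRCm38), and how the deposited counts treated reads shared between such copies is not given in the sources used here. The level of Scd1 was inside 1.5-fold, on the higher side with Shi-Bi-Man, while Scd3 and Scd2 were lower with Shi-Bi-Man.

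Among the elongases, which add carbons to the chain, Elovl5 and Elovl6 lay near their imiquimod level and Elovl3 and Elovl7 were past 1.5-fold lower. Elovl6, which lengthens palmitate, was at 5937 and 6470.1 CPM (log2 ratio 0.12, interval 0.09 to 0.16), and Elovl5, an elongase of polyunsaturated chains, at 919 and 1072 CPM (log2 ratio 0.22, interval 0.13 to 0.31). Elovl3, the sebocyte enzyme of very long saturated and monounsaturated chains, was at 7964 and 5167 CPM (log2 ratio -0.62, interval -0.66 to -0.59). With the sebocyte groups, described below, weighted by the imiquimod mix, the Elovl3 log2 ratio was -0.53, inside 1.5-fold. Elovl7 was at 159 and 27.5 CPM, from 548 and 36 counts (log2 ratio -2.51, interval -3.06 to -2.04). The Shi-Bi-Man value of Elovl7 was thus well under its imiquimod value, with T/NK-like cells at 7.72 and 8.21 CPM. Elovl1 was at 27.5 and 9.17 CPM in sebocyte-like cells, under its 59.8 and 57.5 CPM in T/NK-like cells. Its lowest level among the 8 other classes was 39.9 and 33.9 CPM, so the T/NK-like level is only an upper limit of shared RNA in T/NK-like droplets. The part of shared RNA in its sebocyte ratio of -1.53 was not tested. Fa2h, the fatty acid 2-hydroxylase, was at 4473 and 4890.0 CPM (log2 ratio 0.13, interval 0.09 to 0.17), and Cers4, a ceramide synthase, at 3222 and 4009 CPM (log2 ratio 0.32, interval 0.27 to 0.36). Elovl4, an elongase of the longest chains and not among the 39, was at 9516 and 7604 CPM (log2 ratio -0.32, interval -0.36 to -0.29).

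The widest ratios, those of Pctp and Far1, lay among the wax, glyceride and storage genes. Far1 and Far2 both reduce acyl-CoA to fatty alcohol. Far1 was at 260.3 CPM in the imiquimod and 35.2 CPM in the Shi-Bi-Man library in sebocyte-like cells, from 898 and 46 counts (log2 ratio -2.87, interval -3.35 to -2.46). Its Shi-Bi-Man value lay below the 57.5 CPM of T/NK-like cells in the same library, while its imiquimod value lay above their 85.6 CPM. Far2 was at 3647 and 2923 CPM (log2 ratio -0.32, interval -0.37 to -0.27), inside 1.5-fold. Of the acyltransferases, Awat1, which joins alcohol and acid to a wax ester, was at 766 and 519 CPM (log2 ratio -0.56, interval -0.69 to -0.44) and Awat2 at 197 and 142 CPM (log2 ratio -0.47, interval -0.71 to -0.24). All 4 genes of wax synthesis proper were below their imiquimod level, and Far1 alone passed 1.5-fold, while Awat1 did so in 8 of 18 alternative settings. With the sebocyte groups weighted by the imiquimod mix, Far2, Awat1 and Awat2 had log2 ratios of -0.20, -0.31 and -0.32.

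Triglyceride and cholesteryl ester enzymes differed among themselves. Dgat2 was the 1 gene of the 39 past 1.5-fold higher with Shi-Bi-Man, at 177 CPM in the imiquimod and 294 CPM in the Shi-Bi-Man library (log2 ratio 0.73, interval 0.54 to 0.92). With the sebocyte groups weighted by the imiquimod mix its log2 ratio was 0.58, just inside 1.5-fold. Dgat1, which catalyses the same last step of triglyceride synthesis, was at 263 and 170.5 CPM (log2 ratio -0.62, interval -0.84 to -0.41), past 1.5-fold in 17 of 18 alternative settings. The exception was the imiquimod mix, at -0.54. T/NK-like cells had the highest Dgat1 level of the 8 other classes, 222 and 219.6 CPM, against a median over those classes of 24.8 and 18.8 CPM. Soat1, which esterifies cholesterol, was at 4298 and 5176 CPM (log2 ratio 0.27, interval 0.23 to 0.31). Mgll, the monoglyceride lipase, was at 5905 and 5567 CPM, Plin2, a coat protein of lipid droplets, at 2713 and 2593 CPM, and Cidea, which promotes droplet growth, at 2356 and 2235 CPM. These last genes had log2 ratios of -0.08, -0.06 and -0.08.

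Pctp, the carrier of phosphatidylcholine, showed the widest ratio of all 37 genes. It was at 209.6 CPM in the imiquimod and 22.2 CPM in the Shi-Bi-Man library, from 723 and 29 counts (log2 ratio -3.22, interval -3.83 to -2.71). After thinning to 500 counts, 8.74% of sebocyte-like cells held a Pctp count with imiquimod (exact binomial interval 6.67 to 11.2%) and 0.877% with Shi-Bi-Man (0.106 to 3.13%). T/NK-like cells held one in 0.555% and in 0 of 510 cells, where 3 cells would be 0.588%. The matching shares for Elovl7 were 5.93% (4.23 to 8.05%) and 1.32% (0.272 to 3.80%) of sebocyte-like cells, against 0.476% and 0 of 510 T/NK-like cells. Those for Far1 were 9.98% (7.77 to 12.6%) and 3.51% (1.53 to 6.80%), against 3.88% and 3.33%. With Shi-Bi-Man the Far1 share of sebocyte-like cells was thus close to that of T/NK-like cells.

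Because Far1, Pctp and Elovl7 carried the widest ratios, their promoters are shown, from 250 bases before to 50 bases after the annotated start, as RefSeq gives them on GRCm38.p6, so that each window holds sequence upstream of the gene and the first bases that RefSeq annotates as transcribed. Far1 lies at chr7:113513584-113513883, plus strand, Pctp at chr11:90002845-90003144, minus strand and Elovl7 at chr13:108214154-108214453, plus strand. Capitals mark the letters CCAAT, or their reverse complement ATTGG, the core of the site of the factor NF-Y; the other motifs searched, TCACNCCAC and TCACGTGA, have no match in these windows.
Far1: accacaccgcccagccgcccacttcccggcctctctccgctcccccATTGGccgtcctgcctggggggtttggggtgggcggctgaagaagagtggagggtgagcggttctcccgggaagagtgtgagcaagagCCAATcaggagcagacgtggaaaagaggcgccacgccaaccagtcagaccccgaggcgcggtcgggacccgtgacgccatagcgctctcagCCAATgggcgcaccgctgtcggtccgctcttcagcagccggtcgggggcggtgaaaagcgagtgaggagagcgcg
Pctp: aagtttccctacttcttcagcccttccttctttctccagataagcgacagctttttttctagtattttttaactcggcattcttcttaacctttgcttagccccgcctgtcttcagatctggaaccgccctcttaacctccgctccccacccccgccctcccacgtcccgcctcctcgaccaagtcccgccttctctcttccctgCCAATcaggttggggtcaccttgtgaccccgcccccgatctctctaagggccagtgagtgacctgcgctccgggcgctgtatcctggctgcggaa
Elovl7: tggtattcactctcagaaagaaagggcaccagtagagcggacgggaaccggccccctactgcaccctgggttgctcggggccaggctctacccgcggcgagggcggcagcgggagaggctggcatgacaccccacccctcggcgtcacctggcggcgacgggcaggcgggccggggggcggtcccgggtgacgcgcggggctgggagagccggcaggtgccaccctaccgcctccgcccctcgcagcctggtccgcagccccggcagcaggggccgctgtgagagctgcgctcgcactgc
Far1 holds CCAAT 3 times, starting 204, 116 and 25 bases before the start, Pctp holds it 1 time, 45 bases before the start, and Elovl7 holds 0. CCAAT or ATTGG stands in a promoter of 41.1% of all 27025 genes of the same RefSeq set.

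The counts of these genes with imiquimod came from few cells. The 10 sebocyte-like cells with the most Far1 counts held 51.7% of all Far1 counts in that class, the top 10 for Elovl7 held 57.3%, and the top 10 for Pctp held 33.2%. Over 18 alternative filters, clusterings, scalings and weightings the log2 ratio over all sebocyte-like cells lay between -3.05 and -2.57 for Far1, -2.73 and -2.17 for Elovl7, and -3.37 and -2.40 for Pctp. Of the top 10 cells for Far1, 9 were also in the top 10 for Elovl7 and 7 in the top 10 for Pctp. All 10 top cells of each gene belonged to 1 of the groups into which the sebocyte-like cells fell when they were clustered again without the 39 genes. That group, called group 0 here, was led by Aox4, Elovl7, Dgat2l6, Sec14l4 and Ceacam19, and held 98 of 641 cells with imiquimod (15.3%) and 35 of 228 with Shi-Bi-Man (15.4%). Group 3, led by Cav2, Ccnd2, Steap4, Acsl3 and Akr1c18, held 188 (29.3%) and 81 (35.5%) cells. Group 1, led by Cmss1, Krt10, Cstdc5, Krt1 and Cd74, held 329 (51.3%) and 88 (38.6%) cells with low depth, at a median of 836 and 863 counts, against 10988 and 7492 in group 0 and 9741 and 9747 in group 3. The groups are left unnamed, and 2 small ones of 15 and 8 and of 11 and 16 cells made up the rest. The group shares are of cells, while the ratios between the libraries use summed counts, in which deeper cells weigh more. With the groups weighted by their imiquimod share of counts, Elovl3 was at -0.53 and Dgat1 at -0.54, inside 1.5-fold. Scd3 at -1.13 and Elovl7 at -2.17 stayed past it. The wax, glyceride and storage median was -0.29 in group 0, -0.57 in group 1 and 0.05 in group 3.

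Group 0 was singled out because it held the imiquimod cells with the most Far1, Elovl7 and Pctp counts. Its imiquimod values of these genes were therefore high by choice, and its ratios between the libraries describe the picked group only. Of the top 10 Shi-Bi-Man cells, 2 for Far1, 7 for Elovl7 and 7 for Pctp were in it. In group 0 the cells with imiquimod held high Far1, and those with Shi-Bi-Man did not. Far1 was at 658 CPM in the imiquimod and 22.8 CPM in the Shi-Bi-Man library in group 0, from 717 and 7 counts (log2 ratio -4.75, interval -6.17 to -3.80), and 74 of 98 and 5 of 35 cells held a count. In group 3 Far1 was at 45.6 and 37 CPM (log2 ratio -0.28, interval -0.95 to 0.31). Both group 3 values, and the group 0 value with Shi-Bi-Man, lay below the T/NK-like Far1 level of the same library. Elovl7 in group 0 was at 427 and 94.5 CPM (log2 ratio -2.15, interval -2.77 to -1.64), with a count in 58 of 98 and 9 of 35 cells. Pctp was at 487 and 65.2 CPM in group 0 (log2 ratio -2.87, interval -3.62 to -2.26) and at 43.5 and 2.47 CPM in group 3, where it rested on 83 and 2 counts. Scd3 was at 1360.5 and 734 CPM in group 0 (log2 ratio -0.89, interval -1.10 to -0.69) and 189 and 53.1 CPM in group 3 (log2 ratio -1.82, interval -2.32 to -1.37). Scd3 and Pctp were thus lower with Shi-Bi-Man in groups 0 and 3, while the Far1 interval in group 3 held 0. In the shallow cells of group 1, 17.0% of 329 cells with imiquimod and 7.95% of 88 with Shi-Bi-Man held a Far1 count. For Elovl7 these shares were 9.12% and 1.14%, for Pctp 17.9% and 2.27%, and for Scd3 26.7% and 13.6%. Cells with a Far1 count were thus rarer with Shi-Bi-Man in group 1 too. Whether the ratios differ between the groups was not tested, and group 0 held fewer counts per cell with Shi-Bi-Man.

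Group 0 and group 3 were also compared within each library. Of 36 genes with at least 20 counts over the 2 groups in each library, 15 were past 1.5-fold higher in group 0 than in group 3 in both libraries and 1 was lower in both, against 7.89% and 18.1% of 5957 genes, which include those the clustering used. The 15 held 6 of 11 fatty acid genes, 7 of 11 wax, glyceride and storage genes, 1 of 10 sterol genes and 1 of 4 regulators. They include Elovl7 and Pctp, whose imiquimod counts served to pick group 0, so their higher imiquimod values there were set by choice. Awat1 had a log2 ratio of group 0 over group 3 of 3.13 with imiquimod and 2.79 with Shi-Bi-Man, Awat2 1.64 and 1.54, and Far2 1.37 and 1.11. Elovl7 had 4.74 and 3.58, Scd3 2.85 and 3.78, Elovl5 2.0 and 2.63, Pctp 3.48 and 4.44, and Mgll 1.32 and 1.11. With Shi-Bi-Man, Pctp rested on 20 counts in group 0 and 2 in group 3 (interval 2.68 to 7.87), and Elovl7 on 29 and 6. The single gene lower in group 0 was Dgat2, at -2.12 and -2.25, and the sterol gene that was higher was Msmo1, a C4-sterol methyl oxidase, at 1.16 and 0.94. Far1 was the 1 gene with opposite signs past 1.5-fold, at 3.84 with imiquimod and -0.62 with Shi-Bi-Man, where its interval of -2.13 to 0.52 held 0. These contrasts set cells of a library against each other, so they describe the groups and test nothing.

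**Figure D3:**
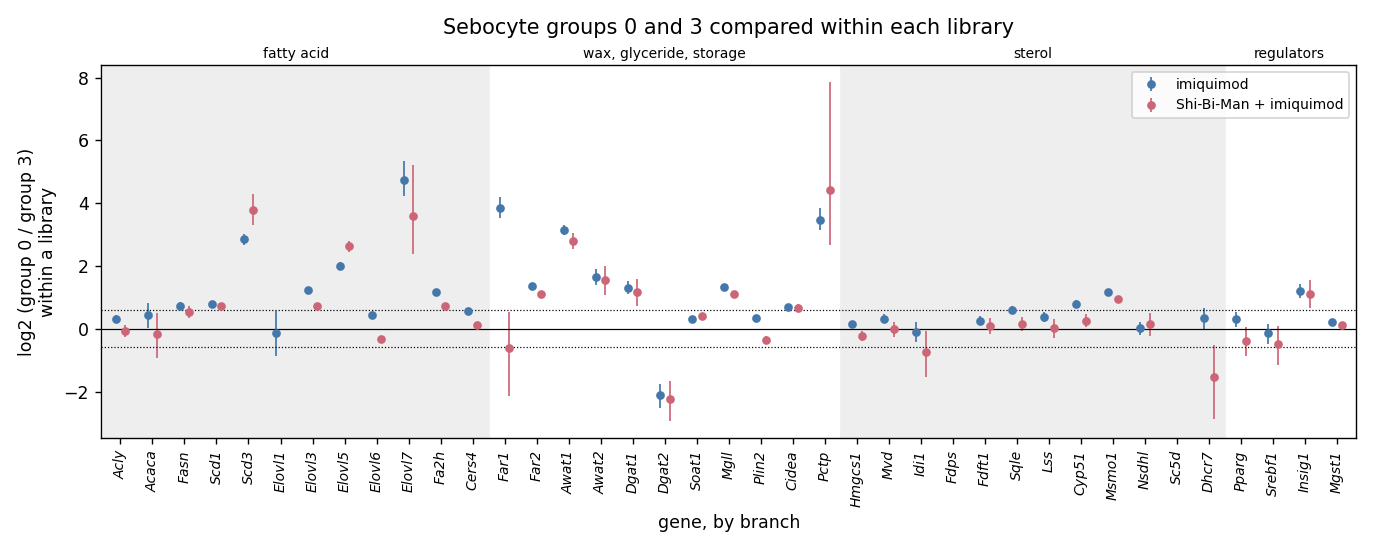
Log2 ratio of sebocyte group 0 over group 3 within the imiquimod library (blue) and the Shi-Bi-Man library (red), with 95% counting intervals; dotted lines mark 1.5-fold, and genes with under 20 counts in a library are not drawn. Points of the 2 libraries lie close together for Awat1, Awat2, Far2, Dgat1, Dgat2 and Mgll and apart for Far1, which is at 3.84 and -0.62. Other genes lie apart too, among them Dhcr7 at 0.33 and -1.52 and Scd3 at 2.85 and 3.78.

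Of the 10 sterol genes measured in sebocyte-like cells 0 were past 1.5-fold in either direction, against 13.9% higher and 9.65% lower of 9873 genes. The nearest to it was Dhcr7, which passed 1.5-fold lower in 10 of 18 alternative settings. Hmgcs1, which makes HMG-CoA at the head of the mevalonate pathway, was at 1498 CPM in the imiquimod and 1541 CPM in the Shi-Bi-Man library (log2 ratio 0.04, interval -0.03 to 0.12). Mvd, the mevalonate diphosphate decarboxylase, was at 570.2 and 659.7 CPM (log2 ratio 0.21), and Idi1, the isopentenyl diphosphate isomerase, at 116 and 102 CPM (-0.19). Fdft1, or squalene synthase, was at 567 and 589 CPM (0.06), Sqle, the squalene epoxidase, at 665 and 743 CPM (0.16), and Lss, the lanosterol synthase, at 497 and 394 CPM (-0.33). All of these lay inside 1.5-fold. After lanosterol, Cyp51, the lanosterol demethylase, was at 959 and 859 CPM (-0.16), Msmo1 at 2470.5 and 2039 CPM (-0.28), Nsdhl, a sterol dehydrogenase, at 266 and 272 CPM (0.04), and Dhcr7, which ends the cholesterol pathway of this branch, at 95.7 and 64.2 CPM (log2 ratio -0.57, interval -0.94 to -0.23). Within group 0, Dhcr7 was at 109 and 26.1 CPM, from 119 and 8 counts (log2 ratio -1.98, interval -3.31 to -1.04), and in group 3 at 86.9 and 79 CPM (log2 ratio -0.13, interval -0.58 to 0.29).

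The promoters were searched for the sites of factors known to act on sterol genes. Hmgcs1 is shown because it was the 1 member with the SREBP letters, and Cyp51 as a sterol gene without them. Of the 39 genes 30 had a promoter in the RefSeq table, 9 of them sterol genes, and every one of those 9 held CCAAT on one strand or the other, where 41.1% of all 27025 genes do. Over the 30 genes the count was 22 (73.3%). The SREBP site written as TCACNCCAC was found in 1 of the 30, Hmgcs1, and in 1.44% of all genes; with 1 mismatch allowed it was in 14 of 30 and 26.7%. The palindromic E-box TCACGTGA was in 0 of 30 and 1.12%. The letters were searched on both strands, TCACGTGA reads the same on both, and its first letters TCAC can overlap TCACNCCAC. On GRCm38.p6 the pair lies upstream of Hmgcs1 (chr13:119690101-119690400, plus strand) and Cyp51 (chr5:4104648-4104947, minus strand), with CCAAT or ATTGG and the TCACNCCAC match in capitals.
Hmgcs1: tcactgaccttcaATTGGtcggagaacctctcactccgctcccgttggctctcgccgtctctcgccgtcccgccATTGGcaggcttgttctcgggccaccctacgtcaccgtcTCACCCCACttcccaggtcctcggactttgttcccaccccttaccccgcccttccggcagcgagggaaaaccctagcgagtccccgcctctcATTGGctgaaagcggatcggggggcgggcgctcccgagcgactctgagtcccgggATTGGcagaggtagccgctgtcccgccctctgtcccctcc
Cyp51: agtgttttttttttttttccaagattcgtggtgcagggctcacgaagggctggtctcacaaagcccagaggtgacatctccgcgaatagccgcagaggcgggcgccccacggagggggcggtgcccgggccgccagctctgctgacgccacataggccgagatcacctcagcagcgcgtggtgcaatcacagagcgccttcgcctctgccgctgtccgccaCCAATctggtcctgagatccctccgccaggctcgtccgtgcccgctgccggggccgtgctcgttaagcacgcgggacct
In Hmgcs1 the match TCACCCCAC starts 137 bases before the start, between ATTGG runs at 176 and 45 bases before it, and in Cyp51 CCAAT starts 29 bases before it. A match is a run of letters and does not show that a factor binds there.

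The regulators were inside 1.5-fold. Pparg, the nuclear receptor of sebocyte and fat cell maturation, was at 193 CPM in the imiquimod and 251 CPM in the Shi-Bi-Man library (log2 ratio 0.38, interval 0.18 to 0.57). Srebf1, which encodes SREBP-1, was at 119 and 130.0 CPM (log2 ratio 0.13, interval -0.13 to 0.39), and Insig1, the sterol-responsive protein that holds SREBPs back, at 232 and 165 CPM (log2 ratio -0.49, interval -0.72 to -0.28). Mgst1, a microsomal glutathione transferase that is abundant in sebaceous gland, was at 9077 and 10976 CPM (log2 ratio 0.27, interval 0.25 to 0.30).

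Other genes of the same pathways were counted in the same way, against 13.9% higher and 9.65% lower of 9873 genes. Of 26 further fatty acid and glyceride synthesis genes 19 were measured in sebocyte-like cells, with 2 higher, 2 lower and a median log2 ratio of 0.16, and of 17 further sterol synthesis and uptake genes 15 were measured, with 2 higher, 3 lower and a median of -0.01. Besides Scd2, the widest ratios in the first list were those of Acsl4, an acyl-CoA synthetase, at 246 and 537 CPM (1.13), and Agpat3, an acyltransferase of phospholipid and glyceride synthesis, at 382 and 218 CPM (-0.81). Those of the second list included Ggps1, the geranylgeranyl diphosphate synthase, at 19.7 and 38.2 CPM (0.96), and Ebp, a sterol isomerase, at 297 and 177 CPM (-0.75). Srebf2, which encodes SREBP-2, was at 115 and 134 CPM (0.22). Fads2, a desaturase, had 3 and 1 counts. Of 14 genes listed under fatty acid oxidation 1 was higher, Angptl4 (60.6 and 138 CPM), which is not itself an oxidation enzyme, and 0 were lower. Among 9 genes of droplet lipases and their partners 7 were measured, with Ces1d higher (335 and 559 CPM) and Hilpda lower (410.2 and 271 CPM). Acadl, an acyl-CoA dehydrogenase, was at 486 and 725 CPM, Ehhadh, a peroxisomal enzyme, at 40.3 and 58.9 CPM and Lpl, the lipoprotein lipase, at 819 and 610.0 CPM. Among 10 basal and cycling genes 0 were higher and 1 lower, Top2a (35.4 and 17.6 CPM), with Mki67 at 43.2 and 29.8 CPM and Stmn1 at 71.6 and 95.6 CPM.

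Across single sebocyte-like cells the branches went together. In 426 cells with imiquimod and 166 with Shi-Bi-Man that held at least 1000 counts, each thinned to 1000, Spearman's rho of the summed fatty acid and wax genes was 0.79 and 0.70, that of the fatty acid and sterol genes 0.65 and 0.59, and that of the wax and sterol genes 0.52 and 0.52. The same sums against Krt5 plus Krt14, keratins of basal cells, gave rho between -0.20 and 0.02. The median fatty acid sum was 38.5 counts per 1000 with imiquimod and 41 with Shi-Bi-Man, the wax sum 19 and 17.5, and the sterol sum 7 and 7. Cells with few fatty acid counts therefore also had few wax and sterol counts in both libraries. The cells of a library share its free RNA and handling, and the sums compete for the same 1000 counts, so these values are a description.

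**Figure D4:**
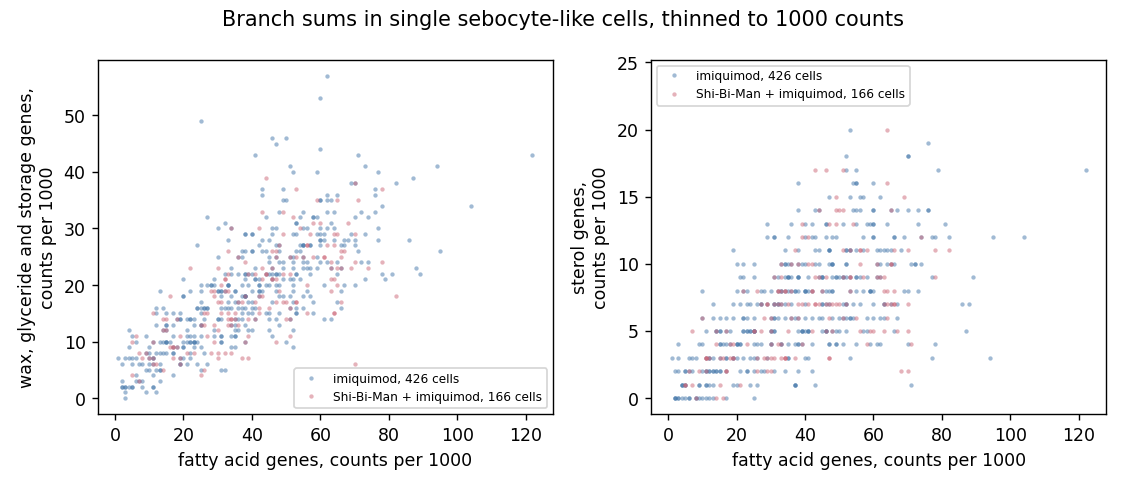
Each point is a sebocyte-like cell thinned to 1000 counts, with its fatty acid gene counts on the horizontal axis and its wax, glyceride and storage counts (left) or sterol counts (right) on the vertical axis. The clouds of the imiquimod library (blue, 426 cells) and the Shi-Bi-Man library (red, 166 cells) overlap over most of their range.

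Keratinocyte-like cells, 2244 with imiquimod and 2738 with Shi-Bi-Man, are considered next. Of 38 genes measured 4 were past 1.5-fold higher with Shi-Bi-Man, Elovl1, Dgat2, Sc5d and Insig1, and 11 were lower, against 14.2% higher and 11.7% lower of 14411 genes. Dgat2 was higher and Scd3, Elovl3, Far1 and Pctp were lower in sebocyte-like cells too, which come from the same 2 libraries. Elovl1 was at 115 CPM in the imiquimod and 181 CPM in the Shi-Bi-Man library (log2 ratio 0.65, interval 0.55 to 0.76), Sc5d at 37.4 and 74.9 CPM (log2 ratio 1.0, interval 0.82 to 1.19), Dgat2 at 60.6 and 117 CPM (log2 ratio 0.95, interval 0.81 to 1.10) and Insig1 at 19.8 and 30.8 CPM (log2 ratio 0.64, interval 0.37 to 0.90). Elovl1 and Sc5d, which lay below their T/NK-like level in sebocyte-like cells in both libraries, thus had their highest values here. T/NK-like cells were at 59.8 and 57.5 CPM for Elovl1 and 35.1 and 30.8 CPM for Sc5d. Insig1 lay below its T/NK-like level of 47.9 and 34.9 CPM in both libraries, and Dgat2 above its 19.6 and 34.9 CPM. The keratinocytes of the libraries were not the same mix: spinous-type cluster 22 (led by Mt4, Calm5, Skint9, Krt77 and Krt10) and cluster 23 (led by Lor, Hrnr and Flg) held 34.9% and 7.01% of them with Shi-Bi-Man and 1.87% and 0% with imiquimod. Clusters 19 and 18 held 33.4% and 25.4% with imiquimod and 8.91% and 4.02% with Shi-Bi-Man.

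Of the 11 members lower in keratinocyte-like cells, 10, all but Far1, had a higher level in sebocyte-like cells than in each other class in both libraries. The same held for 33 of all 39 members, so it does not set the 11 apart. The count of 11 became 18 at Leiden resolution 0.5, 20 at resolution 2 and, in a setting chosen after seeing the data, 19 without the highest 5% of doublet scores. The 11 were Scd3, Elovl3, Far1, Far2, Awat1, Plin2, Cidea, Pctp, Idi1, Pparg and Mgst1. Elovl3 was at 118 and 47.4 CPM (log2 ratio -1.32, interval -1.48 to -1.17) and at 229 and 55.4 CPM in T/NK-like cells (log2 ratio -2.02, interval -2.66 to -1.49). Far2 was at 46.5 and 22.7 CPM (log2 ratio -1.03, interval -1.27 to -0.80) and at 84.3 and 36.9 CPM in T/NK-like cells (log2 ratio -1.15, interval -1.97 to -0.50). Of the 11, 6 (Scd3, Elovl3, Far1, Far2, Awat1 and Cidea) lay below their T/NK-like level in both libraries. Plin2, which many cells make, was at 259.5 and 137 CPM in keratinocyte-like and 178 and 71.8 CPM in T/NK-like cells, and Mgst1 at 471 and 205 CPM and 298 and 177 CPM. Of all counts in a library, 12.1% (imiquimod) and 6.40% (Shi-Bi-Man) were in sebocyte-like cells, and in T/NK-like cells 14 of 37 members were past 1.5-fold lower and 1 higher, against 16.7% and 19.2% of 10523 genes. The part of sebocyte RNA in other droplets in the keratinocyte ratios was not tested.

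Within single keratinocyte clusters the sterol ratios lay mostly above 0 in cluster 2 and mostly below 0 in clusters 18, 19 and 22. In cluster 21 they lay on both sides of 0. Cluster 2 (774 and 840 cells) was led by Ptn, Cxcl14, Sostdc1, Krt15 and Sox9, with 6 basal markers and 5 markers of follicle stem cells and outer root sheath standing out. In cluster 2 4 of 11 sterol genes were past 1.5-fold higher with Shi-Bi-Man and 0 lower, against 19.9% and 9.51% of 11269 genes. In cluster 19, led by the stress keratins and calprotectin genes Krt6b, S100a9, S100a8 and Krt16 (750 and 244 cells), 10 of 11 were lower and 0 higher, against 16.6% and 20.2% of 10209 genes. In cluster 18, of upper follicle type and led by Cst6, Chil1 and Defb6 (571 and 110 cells), 6 of 11 were lower and 0 higher, against 13.1% and 25.3% of 9650 genes. In cluster 21, led by Lsmem1, Tango6 and Serpinb10 (107 and 396 cells), 1 of 10 was higher and 0 lower, against 16.9% and 18.7% of 7151 genes, with a median of 0.08. In spinous-type cluster 22, with only 42 imiquimod cells against 956, 8 of 11 were lower and 0 higher, with a median of -0.90. Over 9592 genes 24.6% were lower and 20.9% higher there. The median sterol ratio was 0.43 in cluster 2, -0.63 in cluster 18 and -1.39 in cluster 19, or -1.27 with Idi1, which had 42 and 0 counts there, set at a floor of 3 counts. Over all genes measured there the median was 0.13, 0.16 and 0.09. In cluster 19 as a whole 26 of 35 members were lower and 0 higher. Many of these values were not above those of T/NK-like cells. In cluster 19 this held for 2 of the 11 sterol genes with imiquimod and 5 with Shi-Bi-Man, and for 19 and 25 of all 35 members, while in cluster 2 it held for 5 and 0 of the 11 sterol genes. Clusters 2, 18, 19 and 21 were picked for display after their values were seen.

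Values of single sterol genes follow, which are part of the counts and medians above. Sqle, Fdft1 and Dhcr7 are among those flagged for ratios past 1.5-fold in opposite directions in clusters 2 and 19, so they add no separate evidence. Sqle was at 55.2 CPM in the imiquimod and 98.7 CPM in the Shi-Bi-Man library in cluster 2 (log2 ratio 0.84, interval 0.53 to 1.16), and at 121 and 36.8 CPM in cluster 19 (log2 ratio -1.69, interval -2.36 to -1.13). Fdft1 was at 67.2 and 119.7 CPM in cluster 2 (log2 ratio 0.83, interval 0.55 to 1.12) and 121 and 45.6 CPM in cluster 19 (log2 ratio -1.39, interval -1.98 to -0.89). Dhcr7 was at 13.3 and 30.5 CPM (log2 ratio 1.19, interval 0.58 to 1.85) and 40.2 and 23.5 CPM (log2 ratio -0.73, interval -1.62 to -0.03). With imiquimod alone, cluster 19 had the higher value of each of these genes, and with Shi-Bi-Man cluster 2 had it. Cyp51 was at 69.7 and 97.5 CPM in cluster 2, 167 and 107 CPM in cluster 18 and 117 and 29.4 CPM in cluster 19. Hmgcs1 was at 128 and 173 CPM, 152 and 81.8 CPM and 179 and 124 CPM in the same order. Lss in cluster 19 was at 28.6 and 8.83 CPM (log2 ratio -1.59, interval -3.17 to -0.53) and Msmo1 at 117 and 50 CPM (log2 ratio -1.21, interval -1.78 to -0.73). Of the fatty acid genes in cluster 19, Acly was at 87.6 and 39.7 CPM (-1.12) with T/NK-like cells at 81.4 and 75.9 CPM, and Elovl7 at 99.2 and 48.6 CPM (-1.01). Dgat2 was at 62.5 and 13.2 CPM there (log2 ratio -2.16, interval -3.38 to -1.29), opposite in sign to its ratio over all keratinocyte-like cells.

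**Figure D5:**
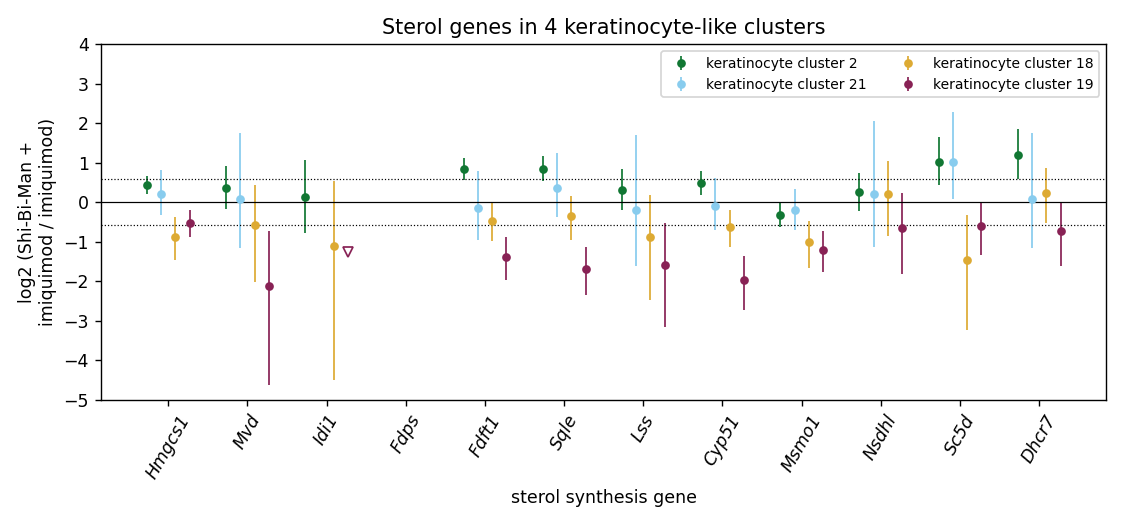
Log2 ratio of the sterol genes between the libraries in 4 keratinocyte-like clusters, with 95% counting intervals; dotted lines mark 1.5-fold, the open triangle is Idi1 in cluster 19 at its floor of 3 counts, and Fdps had too few counts. Points of cluster 2 lie above 0 except Msmo1, and all points of cluster 19 lie below 0.

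Other cell classes held the members at low levels (macrophages are counted with monocytes). Plin2, the lipid droplet coat, was at 495 and 431 CPM in macrophage-like cells and 116 and 69.8 CPM in fibroblast-like cells, and Soat1 at 238 and 179 CPM and 75.9 and 54.3 CPM. Sqle in dermal papilla-like cells was at 231 and 199.5 CPM and Fdft1 at 205 and 159 CPM. Past 1.5-fold, 14 of 37 members were lower and 1 higher in fibroblast-like cells, against 12.3% and 9.38% of 12328 genes. In macrophage-like cells 15 of 36 were lower and 1 higher, against 12% and 13.9% of 10594 genes. The wax, glyceride and storage genes had a median of -0.85 in fibroblast-like, -1.23 in dermal papilla-like and -0.45 in macrophage-like cells.

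Over whole libraries the members took 1.24% of the imiquimod counts and 0.749% of the Shi-Bi-Man counts. Of 38 measured genes 20 were past 1.5-fold lower and 1, Sc5d, higher, against 13.7% and 15% of 18082 genes, with a median log2 ratio of -0.64. Fewer sebocytes and less RNA per sebocyte cannot be told apart in such sums. Sebocyte-like cells held over 50% of the counts in both libraries for 21 of the 38 genes with at least 50 counts in each, for example 85.7% and 82.1% of Scd1 and 88.7% and 87.5% of Fa2h. For Far1 they held 35.6% and 4.67%, for Elovl7 36.1% and 4.01%, and for Sc5d 1.09% and 0.390%. Without sebocyte-like cells 13 of 38 members were past 1.5-fold lower and 2 higher, against 14.3% and 14.4% of 17858 genes, and the sterol median was 0.07 while that of the wax, glyceride and storage genes was -0.94.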

How the data were processed

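Whole-number counts per gene and cell barcode were deposited by the authors for 2 mouse libraries, and the submitters' processing notes name the builds mm10 and GRCm38. The aligner, the counter and the cell calling are not given in the sources used here. The 39 genes, the pathway lists and the markers were chosen with earlier results of these data known. Cells with at least 200 genes and at most 20% mitochondrial counts were kept. Scrublet at an assumed doublet rate of 0.08 marked 0 of 11019 cells with imiquimod, so it did not work there and doublets remain, and 83 of 7946 (1.04%) with Shi-Bi-Man, which were left out. Both libraries were clustered together without integration in scanpy 1.11.5 (2000 variable genes without 82 lipid genes, 30 components, 15 neighbours, Leiden resolution 1, seed 0). A cluster was named from fixed markers when at least 3 were over 2-fold above the other cells and in at least 10% of its cells. Counts were summed per library and cell class (classes needed 100 cells in both libraries), and divided by the class total to give CPM. Ratios were computed with 0.5 added to each count, with exact 95% conditional binomial intervals, and CPM has exact Poisson intervals; both cover counting error only, and the calculation was tested on simulated data. A gene was measured with at least 20 counts over both libraries and called past 1.5-fold. No test between treatments was possible with 1 library each. All members are named; of each other list the 3 measured genes with the largest absolute log2 ratio among those with at least 50 counts, and Scd2, Fads2 and Srebf2, are named; some genes this rule takes are not reported here. Cells were thinned without replacement to 500 or 1000 counts for shares. Scaling factors came from edgeR 4.0.16 and DESeq2 1.42.0. Gene positions are from GENCODE vM21 and promoters from RefSeq on GRCm38.p6; 35 of 40 member promoters had their first transcribed bases in a GENCODE transcript. Alternatives were other filters, clusterings, scalings, weightings and folds. Leaving out the highest 5% of doublet scores, keeping sebocyte-like cells with at least 2000 counts and leaving out sebocyte groups 2 and 4 were chosen after seeing the data.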

Additional observations from a re-analysis of the deposited data

Results flagged for a closer look

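Elovl1 had log2 ratios of opposite sign in 2 cell classes, -1.53 in sebocyte-like and 0.65 in keratinocyte-like cells, and in sebocyte-like cells it lay below its T/NK-like level in both libraries. In keratinocyte-like clusters 2 and 19 the same held for 4 sterol genes: Fdft1 had 0.83 and -1.39, Sqle 0.84 and -1.69, Sc5d 1.02 and -0.59, and Dhcr7 1.19 and -0.73. The imiquimod values of Sc5d and Dhcr7 in cluster 2 were not above those of T/NK-like cells. With 1 library per treatment none of these differences was tested.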

How the results depend on the processing

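No paired analysis was possible because each treatment had 1 library and the labels give no replicate numbers. In sebocyte-like cells Scd3, Elovl1, Elovl7, Far1 and Pctp kept their direction and stayed past 1.5-fold in 18 of 18 alternatives that recompute single ratios, and Elovl3, Dgat1 and Dgat2 in 17 of 18. For Elovl3, Dgat1 and Dgat2 the exception was the imiquimod mix of sebocyte groups. The number of members higher there, 1, became 2 with at most 10% mitochondrial counts, 3 with a mean over cells, and 0 at 2-fold or at the imiquimod mix of sebocyte groups. The fatty acid median of 0.15 became 0.00412 with at most 10% mitochondrial counts, and the sterol median of -0.06 became 0.060 with a mean over cells. In keratinocyte-like cells 4 members higher became 1 at 2-fold, and 11 lower became 18 at resolution 0.5, 20 at resolution 2, 19 without the highest 5% of doublet scores and 7 at 2-fold. Their fatty acid median of -0.10 became -0.42, -0.60 and -0.62 at resolution 0.5, at resolution 2 and without those doublet scores, and 0.14 with 5% of the all-cell profile subtracted. Their wax median of -0.59 became -0.93 with doublets kept, -1.14 and -1.21 at resolutions 0.5 and 2, -0.92 with 20 components and -1.28 without the highest doublet scores. The log2 ratio of sebocyte shares, -1.0, became -0.52 with at most 10% mitochondrial counts and -0.75 at resolution 2. Allowing 1 mismatch moved the members with TCACNCCAC from 1 to 14. The cause of these shifts was not tested. TMM and DESeq2 factors moved all sebocyte ratios by -0.02 and -0.03. Of the 37 members measured, Elovl1, Pctp, Elovl7 and Far1 had the fewest Shi-Bi-Man sebocyte counts, 12, 29, 36 and 46.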

Other observations

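Sebocyte genes outside the 39 were compared within this cluster. Of 18 sebocyte markers 14 had at least 50 counts, 3 were past 1.5-fold higher with Shi-Bi-Man and 3 lower, against 13.9% and 9.65% of the 9873 genes with at least 20 counts. Mc5r, the melanocortin receptor of sebocytes, was at 108 and 221 CPM, Acaa1b, a peroxisomal thiolase, at 199 and 381 CPM, and Aadacl3 at 80.9 and 147 CPM. Dgat2l6, an acyltransferase of the wax synthase family, was at 33.3 and 7.64 CPM, Cidec, a droplet protein, at 40.3 and 18.3 CPM, and Acsl1, an acyl-CoA synthetase, at 119 and 62.7 CPM. Apoc1, Aldh3b2, Ldhb, Hsd3b6, Cyp4f39 and Gpd1 were inside 1.5-fold. These values come from the cells that the markers named, so they describe the cluster and test nothing.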
